A study of Homo sapiens with 12 samples.

Results

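U937 is a human myelomonocytic leukaemia line that turns into macrophage-like cells when it is given the phorbol ester TPA. In TPA-treated U937 cells, cells transduced with an EVI1 expression vector (called EVI1 cells here) were compared with cells transduced with the empty vector (control cells). The comparison used 6 of the series' 12 arrays and all 19775 genes that had a probe set assigned to a single gene, each gene being read from its brightest such probe set. Values are log2 signals made by RMA, so a difference of 1 is a doubling, and every array has its median between 5.07 and 5.11.

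Both populations had been growing logarithmically before they received 50 ng/ml TPA, and parallel cultures received the ethanol solvent, each for 24 h. There were 3 biological replicates of each population in each treatment. The promoter of the vector, any measurement of EVI1 protein and the relation of the replicates to separate transductions are not given in the sources used here. Each population may therefore be a single transduced pool, and p-values measure only the spread between these cultures.

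EVI1, the product of the MECOM gene, binds DNA through zinc fingers. It is expressed in aggressive myeloid leukaemias and hinders myeloid differentiation when it is forced on. TPA imitates diacylglycerol and activates protein kinase C, which in U937 cells engages NF-kB, AP-1 and the ERK cascade. The cells then stop dividing, lose progenitor transcription factors and start to make interleukin 1 beta, chemokines and phagocyte receptors.

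The arrays did not show the EVI1 transcript itself. MECOM was represented by 5 probe sets, which lay between 2.59 and 3.32 on all 6 TPA arrays, and the highest mean among them was at the 13.7th percentile of all probe sets. Its brightest probe set read 3.0, 3.2 and 3.3 in control cells and 2.96, 3.24 and 3.32 in EVI1 cells. The groups overlapped, and the smallest adjusted p over the 5 probe sets was 0.102. Whether these probe sets match the vector's insert is not known here, so the names of the populations rest on the labels.

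Both populations carried the markers of their line. Of 14 measured myelomonocytic markers, all in control cells and 13 in EVI1 cells had a mean above 5.07. Their summed level, as the mean of the 14 log2 values on an array, was 9.51 to 9.61 in control cells and 9.04 to 9.43 in EVI1 cells. The list held 3 genes called lower in EVI1 cells, FCER1G, CSF2RA and AZU1, and none called higher (limma; 1 at an unadjusted p under 0.05 and 1 with the replicate block). The means of 12 lymphoid, 11 epithelial and fibroblast and 7 erythroid markers lay between 4.81 and 5.74 on every TPA array, and none of these genes was called, nor passed an unadjusted p of 0.05 in limma. For 9 megakaryocyte and platelet markers the mean was 5.71 to 5.89 in control cells and 5.18 to 5.42 in EVI1 cells, and PPBP and VWF were called lower. VWF (-0.40 ± 0.12, adjusted p = 0.0427) lost its call in 8 of the 12 fits that left out 1 array and with the replicate block over the 6 TPA arrays (adjusted p = 0.0579), which leaves PPBP.

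In TPA, 2214 of the 19775 genes (11.2%) differed between the populations at an adjusted p under 0.05 in limma, 1166 of them (5.9%) higher in EVI1 cells and 1048 (5.3%) lower. These shares are the background for every gene group below. Among genes brighter than the median gene they were 10.1% and 8.81%. The 3 EVI1 arrays did not overlap the 3 control arrays for 22.4% of all genes and for 2150 of the 2214 called genes. Larger differences lay more often on the lower side. Of 314 called genes that differed by at least 1, 183 were lower and 131 higher, and of those that differed by at least 2, 28 were lower and 8 higher. The median difference over all genes was 0.007. With only the 6 TPA arrays in the fit 1241 genes were called, and a test that asked for a difference beyond 0.2 called 855.

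**Figure D1:**
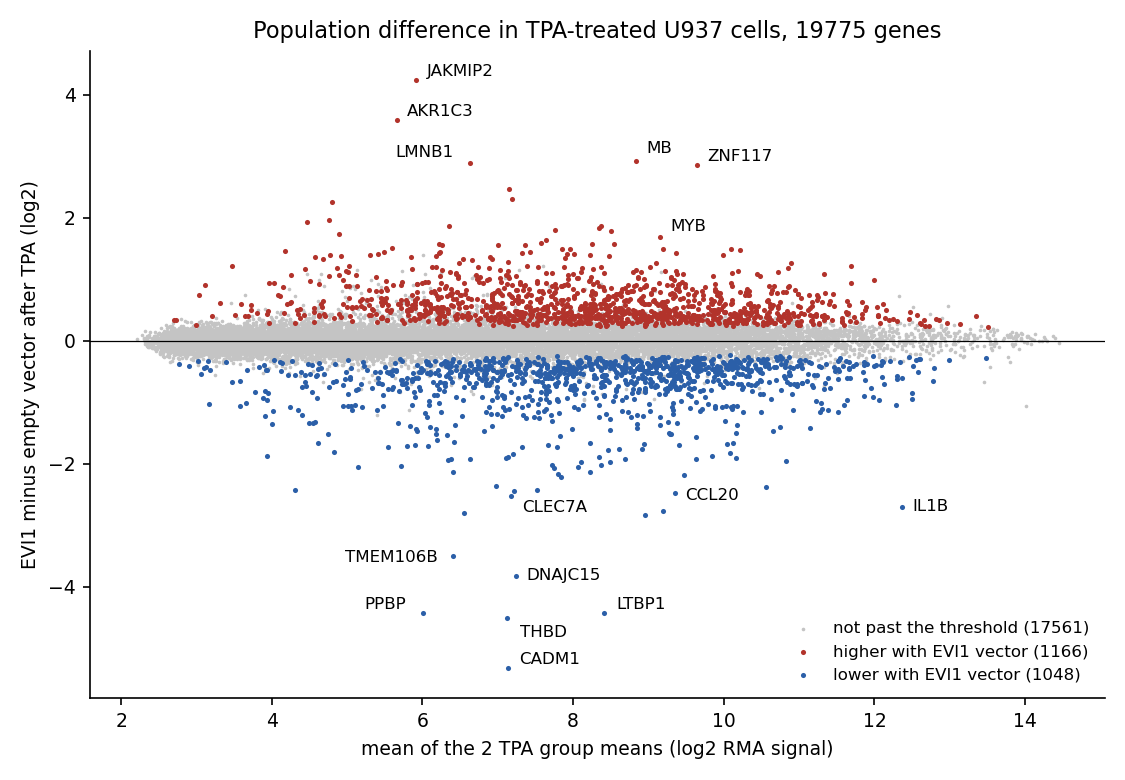
Each point is a gene, with the mean of the TPA group means on the horizontal axis (log2 RMA signal) and the EVI1 minus empty vector difference after TPA on the vertical axis (log2). The 1166 genes called higher are red, the 1048 called lower are blue, and the longest downward differences reach -5.33 for CADM1 while the longest upward one is 4.24 for JAKMIP2.

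Several cytokines of activated macrophages were lower in EVI1 cells. Of 24 measured inflammatory cytokines and growth factors, 7 fell (IL1A, IL1B, IL1RN, TNF, OSM, HBEGF and TNFSF15) and 1, TNFSF9, rose. The median difference of the list was -0.05, against 0.007 for all genes, and both TPA means of 7 members were below 5.07. The 7 falls became 7 to 8 when each array was left out in turn, and the single rise became 0 to 2. With the replicate number as a block in the fit, 2 members rose. These are bulk RNA values, in which fewer cells making a transcript and less transcript per cell cannot be told apart.

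IL1B, which encodes the pyrogenic cytokine interleukin 1 beta, read 13.77, 13.7 and 13.67 in control cells and 11.51, 10.05 and 11.48 in EVI1 cells. The control values lay close together near the top of the scale, and all EVI1 values were lower, replicate 2 by the most. The difference was -2.70 ± 0.28 (SE, n = 3 per group, adjusted p = 4.23e-05), a 6.5-fold lower signal. In ethanol IL1B was at 5.63 ± 0.21 (SD) in control cells and 6.04 ± 0.07 in EVI1 cells, so both TPA populations were far above their ethanol level. IL1RN, the secreted antagonist of the same receptor, read 10.67, 10.55 and 10.46 in control cells and 8.0, 7.91 and 9.24 in EVI1 cells, a difference of -2.18 ± 0.27 (adjusted p = 0.000141). The agonist and its antagonist were both lower, with no overlap between groups.

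OSM, an interleukin 6 family cytokine made by macrophages, read 8.91, 8.88 and 8.55 in control cells and 7.05, 6.65 and 6.43 in EVI1 cells. That difference was -2.07 ± 0.14 (adjusted p = 2.06e-06). TNFSF9, the ligand of the costimulatory receptor 4-1BB, went the other way with 7.41, 7.42 and 7.42 against 7.98, 7.68 and 7.87. Its rise of 0.43 ± 0.11 (adjusted p = 0.0171) did not pass without EVI1 TPA replicate 1 (adjusted p = 0.0715).

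Chemokines fell in the same way. Of 23 measured CC and CXC chemokines 8 fell (CCL4, CCL5, CCL20, CXCL2, CXCL3, CXCL6, CXCL8 and PPBP), the median difference was -0.57, and 8 to 12 fell when each array was left out in turn. Both TPA means of 6 members were below 5.07, CXCL6 among them. No chemokine rose in limma, at an adjusted or an unadjusted p under 0.05. None was called in ethanol, where 1 was higher and 1 lower at an unadjusted p under 0.05.

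PPBP, the precursor of the neutrophil attractant NAP-2, showed the widest gap of the family. It read 7.89, 8.06 and 8.71 in control cells and 3.72, 3.43 and 4.24 in EVI1 cells, where the signal stayed in the dim part of the arrays. The difference was -4.42 ± 0.22 (adjusted p = 1.33e-07). In ethanol both populations were as dim, at 3.11 ± 0.21 and 3.1 ± 0.2 (SD), so the EVI1 cells stayed near the ethanol level, and the difference in response was -4.41 (adjusted p = 1.47e-05). PPBP is also a platelet gene, and the part of megakaryocyte-like cells in its difference was not tested.

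CCL20, which attracts cells through CCR6, read 10.78, 10.58 and 10.42 in control cells and 8.34, 7.59 and 8.4 in EVI1 cells. CXCL2, a neutrophil attractant acting through CXCR2, read 8.8, 8.91 and 9.15 in control cells and 6.55, 6.18 and 7.5 in EVI1 cells. Neither pair of groups overlapped, and EVI1 replicate 2 was the lowest array for both genes. The differences were -2.48 ± 0.18 (adjusted p = 3.14e-06) for CCL20 and -2.21 ± 0.24 (adjusted p = 5.4e-05) for CXCL2.

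Part of the NF-kB pathway was lower, including a subunit, inhibitors and an activating kinase. Of 21 measured members 7 fell (NFKB2, NFKBIA, NFKBIE, IKBKB, TNFAIP3, TNIP2 and TRAF3), 1 rose (REL), and the median was -0.22. The 7 falls became 4 without EVI1 TPA replicate 1 or without control TPA replicate 2, and 4 with the block over the TPA arrays alone. The calls of NFKBIE (-0.25 ± 0.07), TNIP2 (-0.40 ± 0.11) and TRAF3 (-0.40 ± 0.10) were lost in 11, 5 and 3 of the 12 fits that left out 1 array. TNIP2 lies in a run of neighbouring genes described further on.

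NFKBIA, which encodes the inhibitor that holds NF-kB in the cytoplasm and is itself an NF-kB target, read 9.41, 9.43 and 9.72 in control cells and 8.3, 7.98 and 8.24 in EVI1 cells. Its difference was -1.35 ± 0.11 (adjusted p = 6.8e-06). TPA-treated EVI1 cells were at the level of ethanol-treated ones, 8.34 ± 0.06 (SD). TNFAIP3, the ubiquitin-editing feedback inhibitor A20, read 8.09, 8.35 and 8.69 in control cells and 7.19, 6.89 and 7.13 in EVI1 cells, a difference of -1.31 ± 0.13 (adjusted p = 3.36e-05). IKBKB, a kinase subunit upstream of the inhibitor, was lower by a different pattern: it differed in ethanol too, by -0.71 (adjusted p = 0.0012) beside -0.83 ± 0.10 in TPA (adjusted p = 0.000124), and it lies in a run of neighbouring genes described further on. REL, a subunit of the factor itself, read 8.34, 8.34 and 8.0 in control cells and 9.07, 9.37 and 8.64 in EVI1 cells, a rise of 0.80 ± 0.16 (adjusted p = 0.00411).

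Promoters of 5 of the genes that fell are shown because they let the NF-kB matches be seen beside the values. They were chosen after the values were seen, and other genes that fell, such as IL1B and OSM, are not shown. How many of those shown hold a match is therefore no measure of how common it is among genes that fell. The sequences are from RefSeq (GRCh38.p14), run 5′ to 3′ along the gene from 250 bases before to 50 after its start, and capitals mark matches to the NF-kB consensus in the first 4 and to AGATAA or GAGGAAGT on either strand in PPBP. They lie at chr2:227813592-227813891 (plus strand) for CCL20, chr4:74099146-74099445 (minus) for CXCL2, chr14:35404700-35404999 (minus) for NFKBIA, chr6:137867009-137867308 (plus) for TNFAIP3 and chr4:73988141-73988440 (minus) for PPBP.
CCL20: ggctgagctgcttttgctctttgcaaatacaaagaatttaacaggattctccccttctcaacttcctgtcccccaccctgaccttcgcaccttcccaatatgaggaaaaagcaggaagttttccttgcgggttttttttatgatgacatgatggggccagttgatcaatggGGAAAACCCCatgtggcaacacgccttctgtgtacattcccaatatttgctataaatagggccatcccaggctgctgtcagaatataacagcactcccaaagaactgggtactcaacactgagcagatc
CXCL2: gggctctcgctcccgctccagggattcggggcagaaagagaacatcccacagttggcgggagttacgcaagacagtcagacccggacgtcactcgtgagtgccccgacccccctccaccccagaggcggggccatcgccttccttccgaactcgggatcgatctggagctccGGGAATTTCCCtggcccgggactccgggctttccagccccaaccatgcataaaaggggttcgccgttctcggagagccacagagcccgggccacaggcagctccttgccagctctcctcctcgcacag
NFKBIA: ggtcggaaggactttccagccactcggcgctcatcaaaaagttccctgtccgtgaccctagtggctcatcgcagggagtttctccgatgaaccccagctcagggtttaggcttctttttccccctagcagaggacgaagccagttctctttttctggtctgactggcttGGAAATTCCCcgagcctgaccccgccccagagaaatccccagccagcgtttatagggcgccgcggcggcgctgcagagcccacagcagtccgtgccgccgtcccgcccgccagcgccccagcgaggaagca
TNFAIP3: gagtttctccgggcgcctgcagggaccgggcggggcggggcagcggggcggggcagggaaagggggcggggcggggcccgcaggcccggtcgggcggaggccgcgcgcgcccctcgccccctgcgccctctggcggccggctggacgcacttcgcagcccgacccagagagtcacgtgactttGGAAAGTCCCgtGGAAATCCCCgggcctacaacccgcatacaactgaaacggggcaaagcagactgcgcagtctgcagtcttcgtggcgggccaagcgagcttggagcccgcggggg
PPBP: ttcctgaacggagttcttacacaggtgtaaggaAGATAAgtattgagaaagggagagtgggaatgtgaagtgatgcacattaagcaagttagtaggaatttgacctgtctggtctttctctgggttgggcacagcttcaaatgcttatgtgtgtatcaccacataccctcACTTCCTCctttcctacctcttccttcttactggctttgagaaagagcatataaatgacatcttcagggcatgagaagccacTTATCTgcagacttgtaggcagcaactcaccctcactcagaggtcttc
Counted from the start, with bases before it negative, the consensus match lay at -79 to -70 in CCL20 and at -81 to -72 in NFKBIA, both on the reverse strand. In CXCL2 matches on both strands overlapped, from -78 to -68. TNFAIP3 held 2 matches on the reverse strand, at -67 to -58 and -55 to -46. PPBP held none in this window. It held AGATAA, the core of the site bound by the EVI1 zinc fingers, at -217 to -212 and, on the reverse strand, at 2 to 7, and the PU.1 motif GAGGAAGT at -80 to -73 on the reverse strand. Such matches describe the letters of the window and do not show binding.

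Over 15382 promoters of tested genes, the NF-kB consensus (both strands) was found in 6.47% of all, in 7.1% of the 803 promoters of genes called lower and in 7.16% of the 964 of genes called higher. Among genes that differed by at least 1 it was in 10.4% of 125 promoters on the lower side and 2.68% of 112 on the higher side. The AP-1 motif TGANTCA was in 5.83% of all promoters, in 14.4% of the 125 and in 7.14% of the 112. AGATAA was in 7.51%, 10.4% and 7.14% in the same order, and GAGGAAGT in 2.61%, 4.0% and 7.14%. The longer EVI1 site GACAAGATA was in 12 promoters of all tested genes (0.078%) and in none of a called gene. These shares were not tested.

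AP-1 subunits did not move in a common direction. Of 14 measured subunits 4 rose and 3 fell, with a median of 0.04. ATF3, a stress-induced member of the family, read 10.2, 10.13 and 10.45 in control cells and 11.23, 11.35 and 11.76 in EVI1 cells, a rise of 1.19 ± 0.20 (adjusted p = 0.00125). FOSB fell, from 6.15, 6.42 and 6.34 to 5.33, 5.41 and 5.68, by -0.83 ± 0.11 (adjusted p = 0.000182). The calls of JUND (0.43 ± 0.11), MAFF (0.59 ± 0.16), FOSL1 (-0.48 ± 0.13) and MAFG (-0.29 ± 0.08) were near the threshold, with adjusted p between 0.0233 and 0.0317, and each was lost in 2 to 5 of the 12 fits that left out 1 array. The 4 rises became 1 without control TPA replicate 3, and FOSL1 overlapped between groups.

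Early response factors and the phosphatases that turn off MAP kinases were also divided, with 5 rises and 4 falls among 25 measured genes and a median of -0.02. DUSP2, which dephosphorylates ERK in the nucleus, read 6.29, 6.79 and 6.65 in control cells and 7.73, 8.67 and 8.0 in EVI1 cells, a rise of 1.56 ± 0.19 (adjusted p = 0.000117). The orphan nuclear receptor NR4A3 rose by 1.42 ± 0.21 (adjusted p = 0.000575), while its relative NR4A1 fell by -0.58 ± 0.12 (adjusted p = 0.00676). EGR3, an immediate early zinc finger factor, rose by 0.88 ± 0.18 (adjusted p = 0.00543). Of 2 further phosphatases, DUSP10 fell by -0.68 ± 0.15 (adjusted p = 0.00993), and DUSP1 was lower by -0.70 ± 0.20 with a call that 9 of the 12 fits leaving out 1 array did not make. The 4 falls became 2 without control TPA replicate 2 or 3.

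Among 16 receptors and relays of phorbol esters, the direct targets of TPA, 2 rose and 1 fell. RASGRP3, an exchange factor for Ras with a phorbol ester binding domain, read 9.81, 9.38 and 9.27 in control cells and 7.85, 7.1 and 8.21 in EVI1 cells. The groups did not overlap and the difference was -1.77 ± 0.23 (adjusted p = 0.000248). RASGRP2 and PRKCQ, the theta isoform of protein kinase C, were each higher by 0.50, with SEs of 0.10 and 0.11 (adjusted p = 0.00425 and 0.00705).

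Several sensors of microbes were lower. Of 27 measured pattern recognition and inflammasome genes 10 fell (TLR1, TLR2, CD14, LY96, CLEC7A, CLEC5A, NLRC4, CASP1, TICAM1 and TREM1), with a median of -0.20. None rose in limma (1 at an unadjusted p under 0.05). The 10 falls became 6 without EVI1 TPA replicate 2, and 1 gene rose without EVI1 TPA replicate 3. LY96 and CASP1 lie in runs of neighbouring genes described further on.

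CLEC7A, the beta-glucan receptor dectin-1, read 8.04, 8.84 and 8.43 in control cells and 5.47, 5.57 and 6.71 in EVI1 cells, a difference of -2.52 ± 0.31 (adjusted p = 0.000123). CLEC5A, an activating lectin of myeloid cells, read 11.75, 11.72 and 11.77 against 9.53, 8.91 and 9.68. That difference of -2.37 ± 0.16 (adjusted p = 2.24e-06) stood beside -0.66 in ethanol (adjusted p = 0.0422). TREM1, which amplifies inflammatory signals, read 11.5, 12.01 and 11.91 against 9.92, 9.16 and 10.46, a difference of -1.96 ± 0.27 (adjusted p = 0.000317). For all 3 receptors the lowest control array was above the highest EVI1 array.

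Several surface receptors by which macrophages are recognised were lower too. Of 25 measured, 11 fell (ITGAM, ITGAX, CD163, FCGR1A, FCGR2A, FCER1G, FCAR, C3AR1, C5AR1, FPR1 and FPR3) and 1, CD36, rose. The median difference was -0.28, and 8 to 13 fell when each array was left out in turn. FCGR1A was dim in both populations.

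ITGAM, the CD11b chain of complement receptor 3 and a usual readout of this differentiation, read 9.76, 10.42 and 9.9 in control cells and 8.47, 8.51 and 8.59 in EVI1 cells. It was lower by -1.50 ± 0.20 (adjusted p = 0.000224), yet in ethanol it was at 5.08 ± 0.32 (SD) in control cells and 4.59 ± 0.34 in EVI1 cells, so both TPA populations were far above that level. Its response to TPA did not differ past the threshold (-1.01, adjusted p = 0.0948). The haemoglobin scavenger receptor CD163 read 6.54, 7.18 and 7.3 against 5.34, 4.77 and 6.06 (-1.62 ± 0.27, adjusted p = 0.00127), and the C3a receptor C3AR1 read 11.26, 11.5 and 11.4 against 9.98, 9.47 and 10.33 (-1.46 ± 0.25, adjusted p = 0.00167). CD36, a scavenger receptor for oxidised lipoprotein, read 10.93, 10.87 and 11.44 in control cells and 12.02, 12.26 and 12.59 in EVI1 cells. The rise in TPA was 1.21 ± 0.23 (adjusted p = 0.0032), while in ethanol CD36 was lower in EVI1 cells by -0.92 (adjusted p = 0.044), and it was 1 of the 9 genes called in opposite directions in the 2 treatments.

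Cytokine receptors fell more often than they rose, with 8 falls and 3 rises among 29 measured and a median of -0.16. The block over the 6 TPA arrays gave 5 falls. IL7R, the receptor chain for interleukin 7, read 12.57, 12.49 and 12.58 in control cells and 11.61, 11.21 and 11.91 in EVI1 cells, a difference of -0.97 ± 0.15 (adjusted p = 0.000896). IL10RA, which receives the anti-inflammatory cytokine interleukin 10, fell by -1.08 ± 0.17 (adjusted p = 0.000837), and CSF2RA, the alpha chain of the GM-CSF receptor, by -0.86 ± 0.15 (adjusted p = 0.00167). The common beta chain CSF2RB rose by 0.44 ± 0.09 (adjusted p = 0.00786, but 0.0574 with the replicate block over the 6 TPA arrays), and IL13RA1 rose by 0.60 ± 0.12 (adjusted p = 0.005). The fractalkine receptor CX3CR1 was higher by 0.92 ± 0.24, and its call was lost in 4 of the 12 fits leaving out 1 array.

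**Figure D2:**
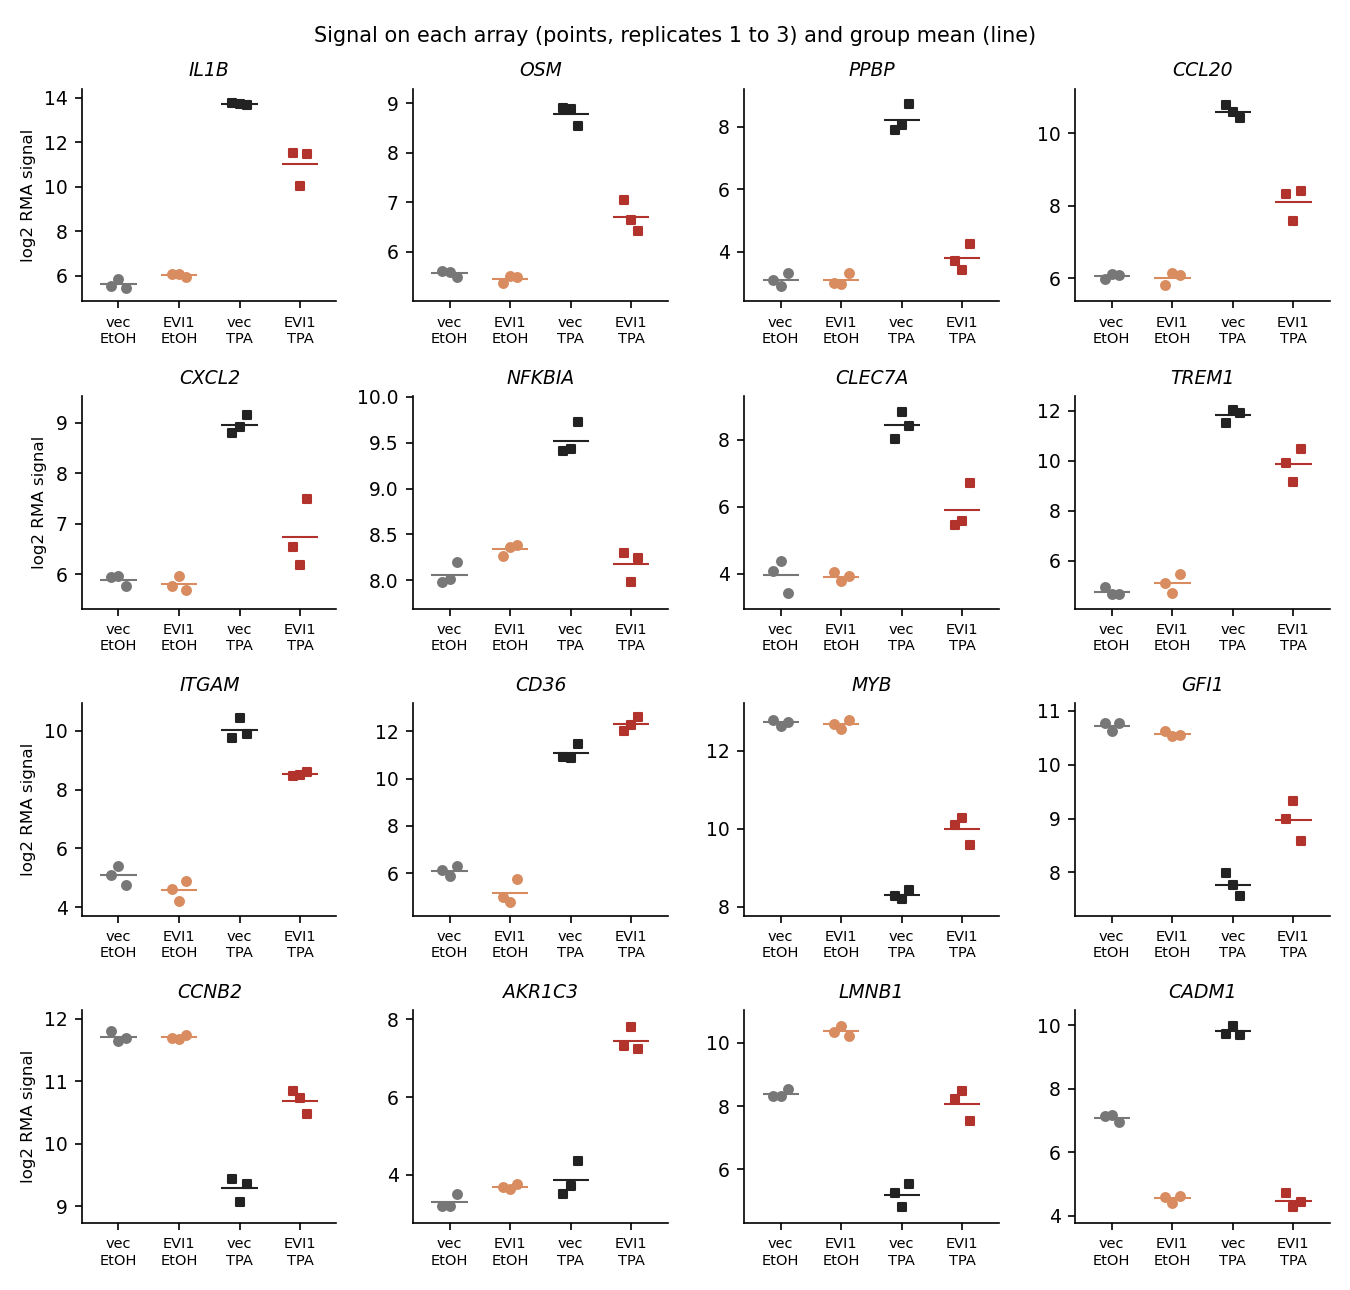
Each panel shows a gene's log2 RMA signal on every array, by population (empty vector or EVI1) and treatment (EtOH or TPA), with points for replicates 1 to 3 and a line at the group mean. IL1B, PPBP, CCL20, CLEC7A and TREM1 start alike in ethanol and part under TPA, MYB, GFI1 and CCNB2 also start alike and are higher in EVI1 cells after TPA, and CADM1 and LMNB1 differ in both treatments.

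Adhesion molecules fell in 8 cases and rose in 3 among 26 measured, with a median of -0.12. CADM1, an immunoglobulin-type adhesion molecule, was the most lowered gene of all those named by size of fall. It read 9.73, 9.98 and 9.7 in control cells and 4.71, 4.27 and 4.45 in EVI1 cells, in the dim part of the arrays, and the difference was -5.33 ± 0.12 (adjusted p = 1.69e-11). In ethanol the difference was -2.53 (adjusted p = 1.38e-07), with control cells at 7.08 ± 0.12 (SD) and EVI1 cells at 4.55 ± 0.11. Control cells in TPA were thus above their ethanol level, and EVI1 cells were near theirs. SELPLG, the ligand of P-selectin, fell by -1.16 ± 0.11 (adjusted p = 2.05e-05) and ICAM3 by -1.53 ± 0.30 (adjusted p = 0.00383). The integrin chain ITGA3 rose by 0.76 ± 0.16 (adjusted p = 0.00788), and ICAM2 (0.68 ± 0.16) and ITGAV (0.36 ± 0.11) had calls that were lost in 2 and 8 of the 12 fits leaving out 1 array.

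Of 23 matrix proteases, inhibitors and urokinase system genes 6 fell and 2 rose, with a median of -0.13. The protease inhibitor SERPINA1 fell by -1.10 ± 0.18 (adjusted p = 0.00127). The metalloproteinase MMP19 read 10.4, 10.42 and 10.73 in control cells and 9.25, 9.03 and 10.02 in EVI1 cells (-1.08 ± 0.19, adjusted p = 0.00205), and MMP10 fell by as much at a dimmer level. PLAU, the urokinase itself, rose by 0.45 ± 0.09 (adjusted p = 0.00394, but 0.0582 with the replicate block over the 6 TPA arrays). CHI3L1, a secreted chitinase-like glycoprotein, was higher by 1.05 ± 0.26, and its call was lost in 3 of the 12 fits leaving out 1 array.

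The TGF-beta list had 7 falls and 3 rises among 26 measured genes, with a median of -0.01. LTBP1, which anchors latent TGF-beta in the matrix, read 10.79, 10.84 and 10.22 in control cells and 6.54, 5.81 and 6.22 in EVI1 cells, a difference of -4.43 ± 0.20 (adjusted p = 5.34e-08) beside -2.55 in ethanol (adjusted p = 2.14e-05). LTBP2 fell by -1.38 ± 0.17 (adjusted p = 0.000121) with no call in ethanol. SMAD6, an inhibitory SMAD, read 7.84, 7.51 and 7.38 against 6.42, 6.34 and 6.41 (-1.19 ± 0.11, adjusted p = 1.55e-05), and the signal-transducing SMAD3 read 8.23, 8.1 and 7.97 against 8.88, 8.87 and 8.75 (0.73 ± 0.10, adjusted p = 0.000253). SMAD7 and TGFB3 were higher by 0.45 and 0.30, with calls lost in 9 and 10 of the 12 fits leaving out 1 array. Without control TPA replicate 2 the 7 falls became 3.

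Progenitor and myeloid transcription factors leaned upward, with 7 rises and 3 falls among 27 measured and a median of 0.08. The 7 rises were CEBPA, IRF8, RUNX3, GFI1, MYB, MEIS1 and IKZF1, and 6 or 7 rose when each array was left out in turn.

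MYB, which keeps haematopoietic progenitors immature, read 8.28, 8.2 and 8.44 in control cells and 10.1, 10.27 and 9.59 in EVI1 cells. The rise was 1.68 ± 0.14 (adjusted p = 9.1e-06). In ethanol MYB was alike at 12.73 ± 0.08 and 12.68 ± 0.11 (SD), so both TPA populations were below that level, and the response was less negative in EVI1 cells (1.73, adjusted p = 0.000664). GFI1, a transcriptional repressor needed for granulocytic development, read 7.99, 7.76 and 7.56 against 9.0, 9.32 and 8.58 (1.20 ± 0.15, adjusted p = 0.000194), and IRF8, a factor of monocytic fate, read 9.21, 8.67 and 8.88 against 10.09, 10.18 and 9.73 (1.08 ± 0.16, adjusted p = 0.000651). None of the 3 genes overlapped between groups. RUNX2 fell by -0.50 ± 0.10 (adjusted p = 0.00455). CEBPE and ID1, at -0.74 ± 0.18 and -0.50 ± 0.12, lost their calls in 3 of the 12 fits each, and CEBPE also with the block over the 6 TPA arrays (adjusted p = 0.0958).

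Granule proteins of neutrophil and eosinophil precursors fell in 6 cases and rose in 1 among 19 measured, with a median of -0.12, and the replicate block gave 7 falls and 2 rises. ELANE, neutrophil elastase, read 10.29, 9.56 and 9.49 in control cells and 8.54, 7.38 and 8.4 in EVI1 cells (-1.67 ± 0.25, adjusted p = 0.000735). RNASE2, the eosinophil-derived neurotoxin, fell by -1.38 ± 0.21 (adjusted p = 0.00071), and PRG2, eosinophil major basic protein, by -1.47 ± 0.20 (adjusted p = 0.000276). The groups did not overlap for any of these 3 genes. LTF, lactoferrin, rose by 0.53 ± 0.12 at a dim level. MS4A3, a membrane protein of granulocyte-monocyte progenitors studied as an EVI1 target, read 5.74, 6.0 and 4.81 in control cells and 4.48, 4.9 and 4.78 in EVI1 cells. The groups overlapped, and the call (-0.80 ± 0.24, adjusted p = 0.0461) was lost in 10 of the 12 fits leaving out 1 array. In ethanol it had been far brighter, at 11.39 ± 0.13 and 9.95 ± 0.24 (SD), with a difference of -1.45 (adjusted p = 0.00333).

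Of 36 cell cycle genes 6 rose (CCNB2, CDC6, MCM3, MCM7, BUB1 and FOXM1) and none fell in limma, also at an unadjusted p under 0.05. The list's median was 0.41 in TPA and -0.03 in ethanol, where none was called and 1 was lower at an unadjusted p under 0.05. The count became 8 with the replicate block over all arrays, 12 with the block over the 6 TPA arrays, 9 without EVI1 TPA replicate 2, and 2 without EVI1 TPA replicate 1 or control TPA replicate 2 or 3. CCNB2, a mitotic cyclin, read 9.44, 9.07 and 9.36 in control cells and 10.85, 10.74 and 10.47 in EVI1 cells, a rise of 1.40 ± 0.11 (adjusted p = 6.32e-06), from an equal 11.71 ± 0.08 and 11.71 ± 0.03 (SD) in ethanol. BUB1, a kinase of the spindle checkpoint, and MCM7, part of the replicative helicase, were higher by 1.20 ± 0.32 and 0.91 ± 0.25, and each lost its call in 3 of the 12 fits. In both, replicate 1 was the brightest array of each population, and BUB1 overlapped between groups.

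A list of cell cycle kinase inhibitors, growth arrest genes and their partners held 10 rises and 1 fall among 24 measured, with a median of 0.22. The genes that rose were CDKN1B, CDKN2A, RB1, RBL1, GADD45B, TOB1, CCND1, CDK6, CCNG1 and CCNG2. Of these only CDKN1B and CDKN2A are kinase inhibitors, and their calls were lost in 4 and 1 of the 12 fits that left out 1 array. Between 6 and 11 rose when each array was left out in turn, the 6 without EVI1 TPA replicate 1 or 2 or control TPA replicate 1 or 2. The members that rose do not all restrain the cycle, and they include the D-type cyclin CCND1. CDK6, a kinase that drives G1 and lies in a run of neighbouring genes, read 11.22, 11.28 and 11.18 in control cells and 12.15, 12.28 and 12.05 in EVI1 cells (0.93 ± 0.09, adjusted p = 1.99e-05). It was higher in ethanol too (0.69, adjusted p = 0.000521). CCNG2, an atypical cyclin linked to arrest, rose by 0.90 ± 0.15 (adjusted p = 0.00134). RBL1, a pocket protein, was higher by 0.63 ± 0.17 and lost its call in 5 of the 12 fits and with the block over the 6 TPA arrays (adjusted p = 0.0777). That fit called 5 rises in the list. CCND3, a D-type cyclin, fell by -0.69 ± 0.11 (adjusted p = 0.00104). CDKN1A, the p21 inhibitor that TPA induces, read 12.56, 12.73 and 12.64 in control cells and 12.52, 12.49 and 12.69 in EVI1 cells. Its groups overlapped in TPA (-0.08 ± 0.12, adjusted p = 0.784), while in ethanol it was higher in EVI1 cells by 0.74 (adjusted p = 0.00226).

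The BCL2 family moved in both directions. Of 16 measured members 5 rose, all of them promoting cell death or autophagy (BIK, BCL2L11, BMF, PMAIP1 and BNIP3L), and 3 fell, all of them restraining death (BCL2, BCL2L1 and MCL1). The median was 0.13. BCL2L11, the BH3-only protein BIM, read 8.82, 8.17 and 8.33 in control cells and 9.59, 9.51 and 9.22 in EVI1 cells (1.00 ± 0.15, adjusted p = 0.000582). BCL2L1, which encodes BCL-XL, read 10.87, 10.91 and 11.07 against 10.13, 10.01 and 10.12 (-0.86 ± 0.08, adjusted p = 2.25e-05). BCL2 itself read 9.69, 9.68 and 9.58 against 9.14, 8.51 and 8.69 (-0.87 ± 0.14, adjusted p = 0.00128). The groups did not overlap for any of the 3 genes. BIK (0.84 ± 0.14) and BNIP3L (0.77 ± 0.10) were also higher in ethanol, by 0.60 and 0.43, and BCL2L1 was also lower there, by -0.45, in a run of neighbouring genes. MCL1 differed by -0.31 ± 0.08 and lost its call in 4 of the 12 fits.

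Lipid synthesis genes leaned upward. Of 17 genes of cholesterol and fatty acid synthesis 4 rose and 1 fell, with a median of 0.16 against -0.16 in ethanol, and with the replicate block 7 rose. SCD, which desaturates fatty acids, read 8.72, 8.84 and 9.52 in control cells and 9.6, 9.91 and 10.35 in EVI1 cells (0.93 ± 0.20, adjusted p = 0.00688). The mevalonate pathway enzymes IDI1 and HMGCS1 rose by 0.81 ± 0.13 and 0.69 ± 0.12 (adjusted p = 0.00091 and 0.00189), and the remaining riser of the list was FDPS. ACAT2, a cytosolic thiolase upstream of them, is not in the list and was named for the size of its rise, 1.78 ± 0.19 (adjusted p = 4.64e-05). SQLE, a later enzyme, was lower by -0.34 ± 0.09, a call lost in 4 of the 12 fits. Of 18 lipid uptake and efflux genes 3 rose and 1 fell (5 and 2 with the replicate block). The fatty acid binding protein FABP3 rose by 1.05 ± 0.15 (adjusted p = 0.000565), and NR1H3, the oxysterol receptor LXR alpha, by 0.81 ± 0.14 (adjusted p = 0.00144), both with no overlap between groups. RXRA, its partner, rose by 0.46 ± 0.10 (adjusted p = 0.00625), and OLR1, the lectin-like receptor for oxidised lipoprotein, was lower by -0.95 ± 0.25, a call lost in 3 of the 12 fits.

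Antigen presentation genes rose in 5 cases and fell in 2 among 25 measured, with a median of 0.10, and 3 rose without EVI1 TPA replicate 1 or control TPA replicate 2 or 3. HLA-DMA, which loads peptides onto class II molecules, read 5.54, 5.78 and 5.21 in control cells and 6.88, 7.07 and 6.93 in EVI1 cells (1.45 ± 0.20, adjusted p = 0.000287), and TAP2, a subunit of the peptide transporter for class I, rose by 0.76 ± 0.10 (adjusted p = 0.000302). HLA-DRA was higher by 1.64 ± 0.45, but its groups overlapped and its call was lost in 4 of the 12 fits. The costimulatory marker CD83 fell by -0.60 ± 0.12 (adjusted p = 0.00533), and HLA-E was lower by -0.34 ± 0.10, a call lost in 7 of the 12 fits.

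Of 29 measured interferon response genes 4 rose (GBP1, RSAD2, SP110 and IRF1) and none fell (limma, also at an unadjusted p under 0.05), with a median of 0.49 in TPA and 0.20 in ethanol. Without control TPA replicate 3, 2 rose. GBP1, an interferon-induced GTPase, read 3.49, 4.21 and 3.33 in control cells, in the dim part of the arrays, and 5.37, 5.14 and 7.29 in EVI1 cells, and RSAD2, the antiviral protein viperin, read 4.64, 4.58 and 4.58 against 5.38, 5.16 and 7.46. EVI1 replicate 3 was the highest array for both. Without it the differences fell from 2.26 to 1.58 and from 1.40 to 0.67. SP110, a nuclear body protein, went from 0.94 to 0.58 without the same array. All 3 genes were still called then, and 2 other members of the list fell. RSAD2 (adjusted p = 0.0462) lost its call in 9 of the 12 fits that left out 1 array and SP110 in 1, and both lost it with the replicate block over the 6 TPA arrays (adjusted p = 0.105 and 0.134), where 2 members rose.

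Fewer genes were called in the following lists. Of 26 lysosomal genes 3 fell and none rose in limma (2 at an unadjusted p under 0.05), with the protease genes CTSB (-0.66 ± 0.15, adjusted p = 0.0106) and CTSC (-0.56 ± 0.08, adjusted p = 0.000638) among them, and without EVI1 TPA replicate 3 the count was 6. Of 25 glycolysis and hypoxia genes 1 rose, the glucose transporter SLC2A1 (0.95 ± 0.14, adjusted p = 0.000619), and 3 fell, among them the vasoactive peptide ADM (-0.93 ± 0.21, adjusted p = 0.00955). HK2, a hexokinase, was lower by -0.53 ± 0.16 with overlapping groups, and its call was lost with the replicate block (adjusted p = 0.0546). PFKFB3, at -0.45 ± 0.12, lost its call in 4 of the 12 fits. Of 22 oxidative burst and antioxidant genes 1 fell, the sulfiredoxin SRXN1 (-0.80 ± 0.09, adjusted p = 8.83e-05), which lies in a run of neighbouring genes, and 1 rose, AKR1C3. With the replicate block these lists gave 1 rise and 4 falls, 2 and 4, and 2 and 2 in that order. Of 23 MYC and ribosome biogenesis genes 1 rose, the nucleolar methyltransferase FBL (0.57 ± 0.10, adjusted p = 0.00242), and 1 was lower, NOP14 (-0.27 ± 0.08), whose call was lost in 11 of the 12 fits (with the block, 2 were lower). Among 19 genes that earlier work tied to EVI1, 2 rose (AKR1C3 and SMAD3) and 4 fell, with a median of 0.05.

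**Figure D3:**
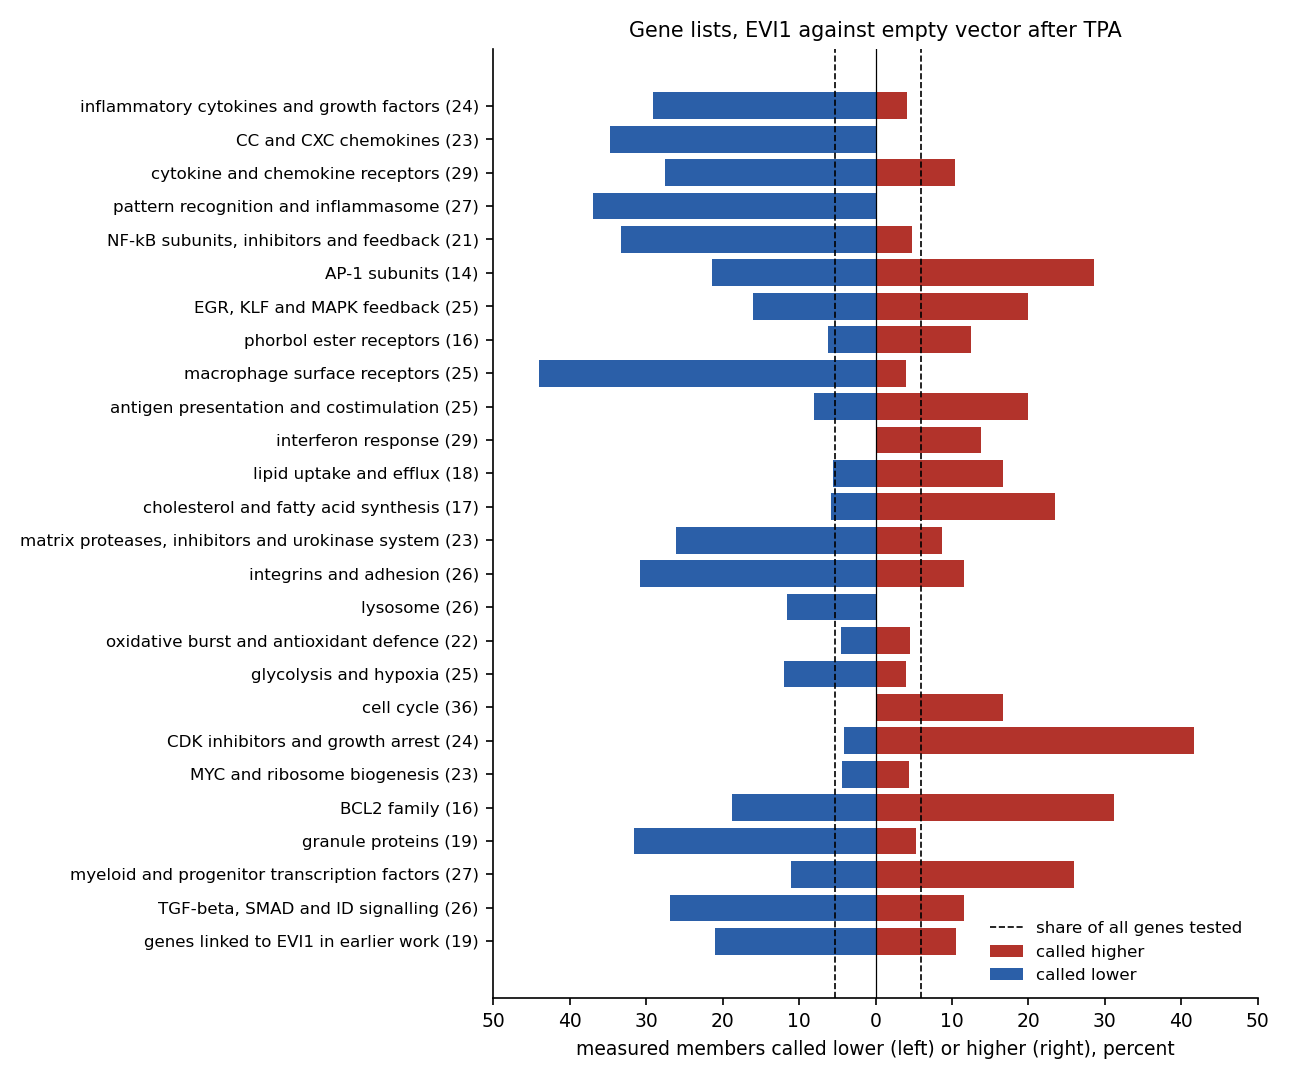
Bars give the percent of measured members of each gene list that were called lower (left, blue) or higher (right, red) in EVI1 cells after TPA, with the number measured in brackets. Dashed lines mark the shares of all genes tested, 5.3% lower and 5.9% higher. Chemokines, sensors and macrophage receptors extend to the left, and the mixed list of CDK inhibitors and growth arrest genes to the right.

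The highest rises had no common list. The 15 named by size, among genes whose TPA groups did not overlap and whose brighter group was above the median gene, were JAKMIP2, AKR1C3, MB, LMNB1, ZNF117, RASD2, GPR18, ATL1, NREP, ATP9A, KMO, ACAT2, MYB, RAB37 and TXLNB, from 4.24 down to 1.58. JAKMIP2, a long coiled-coil protein, read 3.84, 3.8 and 3.77 in control cells, in the dim part of the arrays, and 7.74, 8.21 and 8.17 in EVI1 cells (4.24 ± 0.11, adjusted p = 4.92e-11). It was called higher in ethanol too (adjusted p = 3.56e-05). AKR1C3, an aldo-keto reductase of steroid and prostaglandin metabolism, read 3.52, 3.72 and 4.36 against 7.32, 7.8 and 7.23 (3.58 ± 0.19, adjusted p = 2.17e-07). In ethanol both populations were dim, at 3.31 ± 0.18 and 3.7 ± 0.06 (SD), and whether its near-identical relatives also bind the probe set was not tested.

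LMNB1, lamin B1 of the nuclear lamina, read 5.24, 4.8 and 5.53 in control cells and 8.23, 8.48 and 7.53 in EVI1 cells, a rise of 2.89 ± 0.21 (adjusted p = 3.99e-06). The gap was present without TPA (1.97, adjusted p = 0.000177), at 10.36 ± 0.16 (SD) in EVI1 cells and 8.39 ± 0.12 in control cells, and the response did not differ past the threshold (adjusted p = 0.188). ZNF117, a zinc finger gene, showed the same pattern, with 2.86 ± 0.22 in TPA (adjusted p = 4.03e-06) and 2.37 in ethanol (adjusted p = 5.33e-05). MB, myoglobin, rose by 2.92 ± 0.32 (adjusted p = 6.22e-05), with 7.25, 8.07 and 6.78 in control cells against 10.16, 11.06 and 9.65 in EVI1 cells, replicate 2 being the highest of both groups. KMO, a kynurenine pathway enzyme, read 6.7, 7.02 and 6.83 against 7.94, 8.7 and 9.33 (1.81 ± 0.27, adjusted p = 0.000619).

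The remaining large rises were of mixed function. RASD2, a Ras-like GTPase, rose by 2.46 ± 0.15 (adjusted p = 7.33e-07), and GPR18, a G protein-coupled receptor, by 2.31 ± 0.31 (adjusted p = 0.000245). ATL1, a GTPase that shapes the endoplasmic reticulum, rose by 1.86 ± 0.14 (adjusted p = 4.03e-06). NREP rose by 1.86 ± 0.18 (adjusted p = 2.05e-05). ATP9A, a phospholipid flippase, rose by 1.83 ± 0.25 (adjusted p = 0.000334). GPR18, ATL1 and ATP9A were also higher in ethanol, by 1.22, 0.79 and 1.47 (adjusted p = 0.0485, 0.00594 and 0.00459). The difference in response of GPR18 and ATP9A did not pass the threshold. RAB37, a small GTPase of secretory granules, rose by 1.59 ± 0.20 (adjusted p = 0.000162), and TXLNB by 1.58 ± 0.15 (adjusted p = 2.11e-05).

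The 15 largest falls under the same rule were CADM1, THBD, LTBP1, PPBP, DNAJC15, TMEM106B, IPCEF1, COL22A1, PINLYP, IL1B, CLEC7A, CCL20, ADORA3, AFDN and CLEC5A, from -5.33 to -2.37. THBD, the thrombin receptor thrombomodulin, read 9.39, 9.4 and 9.34 in control cells and 5.11, 3.83 and 5.66 in EVI1 cells (-4.51 ± 0.33, adjusted p = 3.42e-06), and in ethanol the difference was -2.19 (adjusted p = 0.00173). The EVI1 mean of 4.87 was dim and its spread wide, yet the highest of them was far below the lowest control array.

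DNAJC15, a mitochondrial co-chaperone, and TMEM106B, a lysosomal membrane protein, were low in EVI1 cells in both treatments. DNAJC15 read 9.14, 9.28 and 9.03 in control cells and 5.65, 4.36 and 5.97 in EVI1 cells, a difference of -3.82 ± 0.36 (adjusted p = 1.98e-05) beside -4.08 in ethanol (adjusted p = 4.28e-05). TMEM106B read 8.19, 8.17 and 8.1 against 4.95, 4.07 and 4.95, which lies in the dim part of the arrays, as do its EVI1 values in ethanol, so the size of the gap is uncertain. It was a difference of -3.50 ± 0.22 (adjusted p = 7.64e-07) beside -3.98 in ethanol (adjusted p = 3.65e-07). Neither difference in response passed the threshold, with adjusted p of 0.902 and 0.579.

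ADORA3, an adenosine receptor, read 8.55, 8.46 and 8.32 in control cells and 6.36, 5.51 and 6.13 in EVI1 cells (-2.44 ± 0.20, adjusted p = 6.32e-06). AFDN, the junction protein afadin, read 8.64, 8.6 and 8.99 against 6.59, 6.0 and 6.34 (-2.43 ± 0.15, adjusted p = 6.78e-07). Neither was called in ethanol, with adjusted p of 0.966 and 0.977. COL22A1, a fibril-associated collagen, and PINLYP, a phospholipase inhibitor, fell by -2.80 ± 0.20 (adjusted p = 3.29e-06) and -2.77 ± 0.38 (adjusted p = 0.000333), again with no call in ethanol. IPCEF1 fell by -2.83 ± 0.21 (adjusted p = 3.99e-06) and was also lower in ethanol, by -1.35 (adjusted p = 0.00229).

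The differences in TPA were set beside those in ethanol, which come from other arrays of the same populations. In ethanol 647 genes (3.27%) were called, and 425 of them were also called in TPA, which is 65.7% of the ethanol calls and 19.2% of the TPA calls. Of these 425, 416 went the same way, 175 higher and 241 lower. Most genes that differed in TPA were thus not called in ethanol, which alone does not show a different size of effect. The difference in response, tested directly, was called for 392 genes (1.98%), for 185 (0.936%) more positive and 207 (1.05%) more negative in EVI1 cells, and 350 of these were also called in TPA. Among the 15 largest falls 13 had a called difference in response, and among the 15 largest rises 11. The difference in response includes the difference in TPA, so genes picked for a large difference in TPA are called more often. Among the 314 called genes that differed by at least 1 in TPA, it was called for 149.

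Counts in this test are given against the 1.98% of all genes. A more negative response was called for 7 of the 24 cytokines, 7 of the 23 chemokines, 5 of the 27 sensors and 3 of the 25 macrophage receptors. The macrophage receptor CD36 had a more positive one. The 7 cytokines are those that fell in TPA, and the difference in response includes that fall, so these counts are not independent. None of the 19 granule proteins, 25 antigen presentation genes or 29 interferon response genes had a called difference in response in limma (3, 4 and 1 at an unadjusted p under 0.05), and at that share lists of this size would hold less than 1. Of the 29 cytokine and chemokine receptors none had a called more negative response in limma (9 at an unadjusted p under 0.05), and 1 had a more positive one. A more positive response was called for 4 of the 27 transcription factors, 3 of the 17 cholesterol genes and 4 of the 25 early response genes. The early response gene DUSP10 had a more negative one. Of the 26 adhesion genes 4 were more negative, of the 21 NF-kB genes 3, and the 26 TGF-beta genes gave 4 more negative and 2 more positive.

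**Figure D4:**
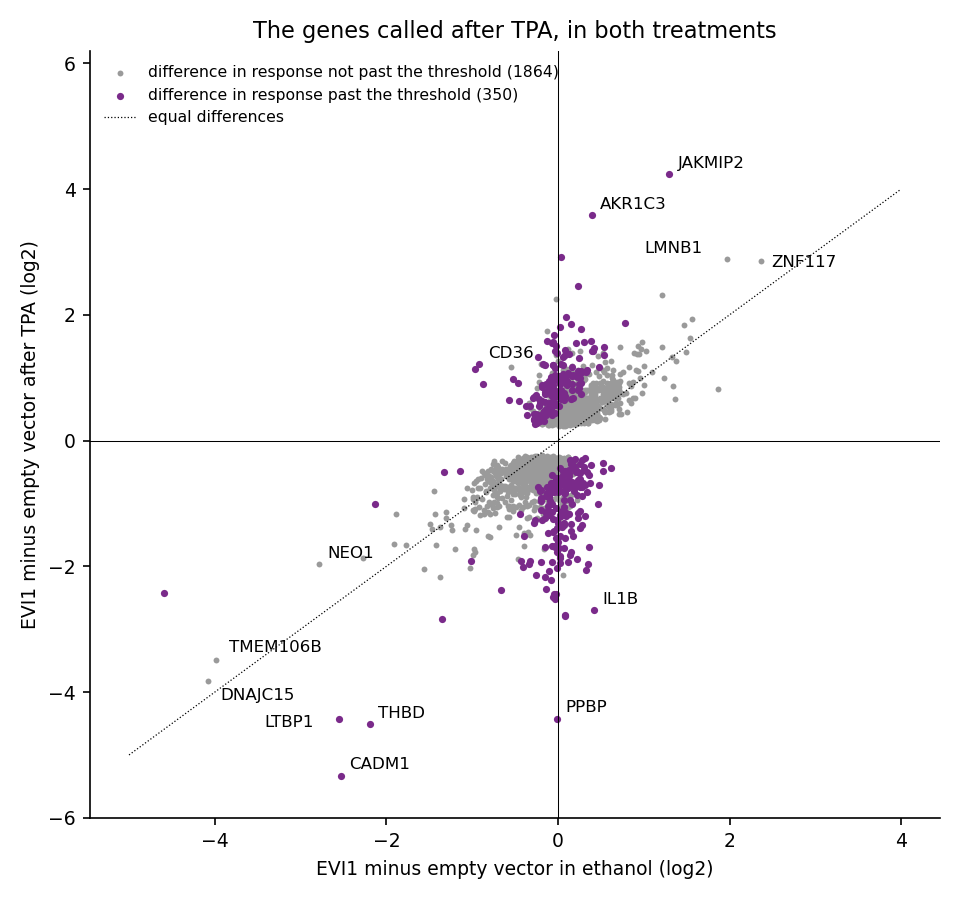
The 2214 genes called after TPA are plotted by their EVI1 minus empty vector difference in ethanol (horizontal, log2) and after TPA (vertical, log2), with purple for the 350 whose difference in response passed the threshold. PPBP, IL1B and AKR1C3 lie near 0 on the horizontal axis, while TMEM106B, DNAJC15 and ZNF117 lie near the dotted line of equal differences.

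Some of the differences followed position along the chromosomes. Expressed genes, those whose mean over all arrays was above the median gene, were put in chromosomal order. Runs in which the median ethanol difference over 31 neighbours passed 0.2 in size were marked from the ethanol arrays alone. There were 13 runs with 972 of 9873 placed genes. On the TPA arrays 40.6% of the genes in runs were called, against 16.6% of 8915 expressed genes outside, and every run had a median in TPA of the same sign as in ethanol. The treatments used different arrays of the same populations, so the runs belong to these populations, and what gives rise to them was not tested.

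The longest run went from FGL2 to IRF5 on chromosome 7 and held 150 genes with a median difference of 0.44 in ethanol and 0.50 in TPA. In TPA 93 of its genes were higher and 6 lower, and CD36, CDK6 and MCM7 lie in it. CD36 went against the run in ethanol, at -0.92. The run from ZCCHC3 to DNMT3B on chromosome 20 held 112 genes with medians of -0.41 and -0.40, of which 65 were lower and 2 higher, BCL2L1, SRXN1 and ID1 among the lower. The run from KIF13B to FABP4 on chromosome 8 held 96 genes with medians of -0.35 and -0.31, of which 46 were lower and 2 higher. IKBKB and LY96 lie in it, though LY96 was not lower in ethanol. CADM1, CTSC and CASP1 lie in a run of 72 genes on chromosome 11 with a median of -0.22 in TPA, and TMEM106B in a run of 112 genes on chromosome 7 with a median of -0.16, so both of these genes differed far more than their neighbours. ACAT2, AFDN and IPCEF1 lie in a run on chromosome 6 whose median was 0.23, which AFDN and IPCEF1 went against. Outside all runs 1819 genes were called, 1000 higher and 819 lower, a count that includes dimmer genes that were not placed. Genes outside the runs can still share a lean with their chromosome. On chromosome 9, which held no run, 80 of 776 genes (10.3%) were called higher and 14 (1.8%) lower, against 5.9% and 5.3% of all genes. IL1B, CCL20, OSM, TREM1, ITGAM, MYB, GFI1 and CCNB2 lie outside the runs. PPBP, CLEC7A and AKR1C3 had means over all arrays below the median gene. They were not placed, but no run lay on chromosome 12, which holds CLEC7A, or on chromosome 10, which holds AKR1C3. The run on chromosome 4, which holds TNIP2, went from ZNF721 to RAB28, and PPBP lies beyond it.

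**Figure D5:**
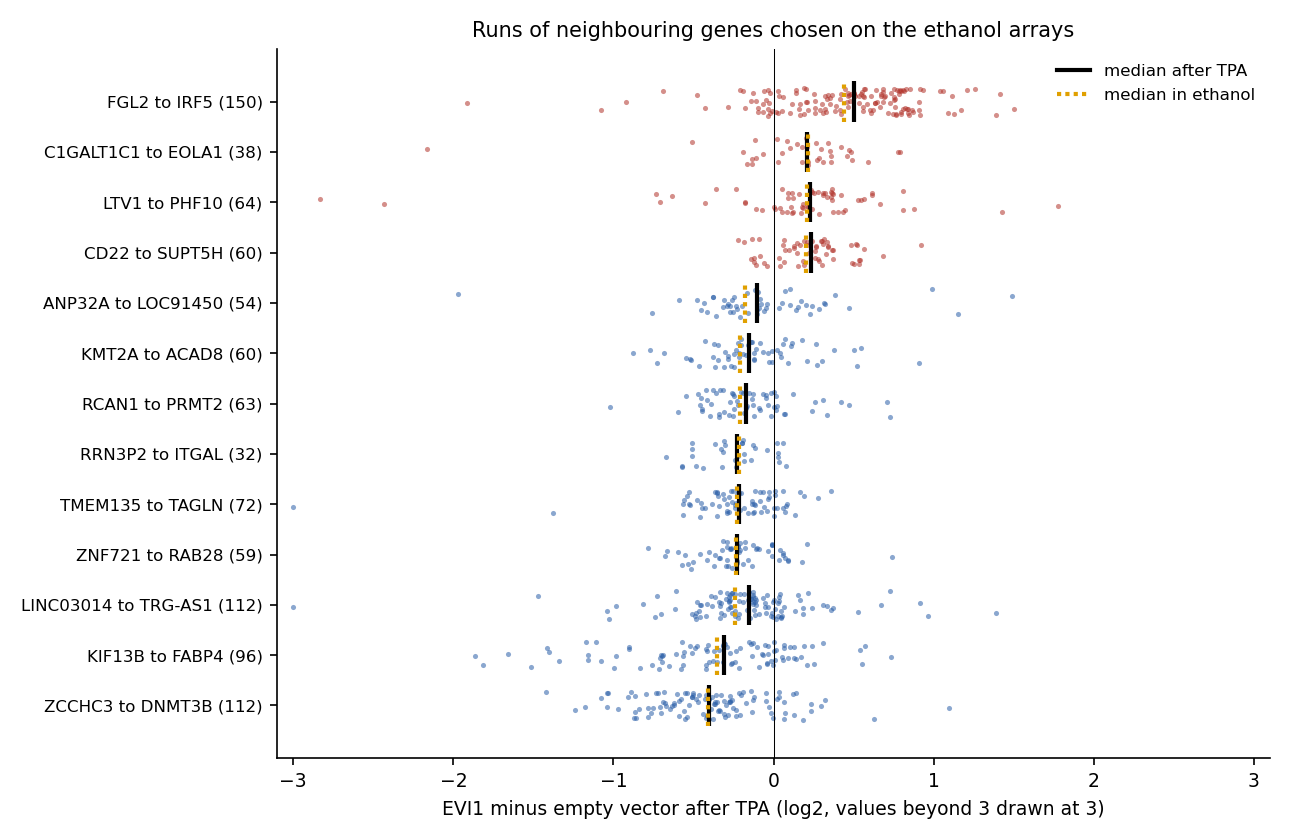
Each point is a gene of a run, plotted by its EVI1 minus empty vector difference after TPA (log2), with a line of points for each of the 13 runs and the number of genes in brackets. The black bar is the run's median after TPA and the dotted bar its median in ethanol; red runs were chosen as higher and blue ones as lower in ethanol, and the bars lie on the same side of 0 in every run.

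RNA quality showed no separation of the TPA groups on the measure the arrays allow. The 3′ minus 5′ probe set gap of ACTB was 1.25 ± 0.03 (SD, n = 3) in EVI1 cells and 1.36 ± 0.25 in control cells (exact permutation test, two-sided, p = 0.8), and that of GAPDH was 0.34 ± 0.06 and 0.46 ± 0.13 (exact permutation test, p = 0.3). With 3 arrays against 3 this test cannot give a p below 0.1. Arrays of a group correlated across genes at 0.993 to 0.996 in TPA and at 0.997 to 0.998 in ethanol, and the lowest of these involved EVI1 TPA replicate 3. Of 1437 called genes with several probe sets, ARRB1 and FRMD4A had another probe set called the opposite way.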

How the data were processed

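Total RNA (250 ng) was labelled with the Affymetrix 3′ IVT protocol, per the labels' protocols. The authors deposited log2 values made by RMA (Expression Console 1.3 by Affymetrix, per the submitters' processing notes); whether all 12 arrays were normalized together, and the build behind the array, are not given in the sources used here. Of 54675 probe sets 41097 had 1 gene symbol, 1801 several and 11777 none (62 controls among them were left out); the brightest probe set stood for each of 19775 genes.

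limma 3.58.1 (R 4.3.3) fitted 4 group means over the 12 arrays with 8 residual degrees of freedom, and Benjamini-Hochberg adjustment ran over all genes. The ± after a difference in signal between the populations is the SE of that fit, which pools the spread of all 4 groups. "Called" means an adjusted p under 0.05. The script was tested on simulated data. Deviations from the group means of same-numbered TPA arrays correlated at 0.415, 0.13 and 0.151, and those of differently numbered ones at -0.229 to 0.058. The numbers were thus taken to pair them, but the main fit has no block. Between treatments same-numbered arrays correlated at -0.02 to 0.208, and the block over 12 arrays takes them as paired too. The gene lists, the comparison and the rule for named genes were chosen with earlier results of these data known. That rule took the 15 largest rises and falls among called genes without overlap and above the median level, 10 each way also called for the response, up to 3 called members each way per list, and MECOM, MS4A3 and CDKN1A. Of 718 list entries 658 were measured, and the others were not analysed here.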

Additional observations from a re-analysis of the deposited data

Results flagged for a closer look

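The response to TPA, the TPA minus ethanol difference of a population, differed between EVI1 and control cells for 63 of 140 genes given with values here, 36 more negative and 27 more positive in EVI1 cells (limma, adjusted p under 0.05). Part of these genes were named for that call, so the share is no result about them, and over all 19775 genes it was 1.98%. The values below are differences in response, EVI1 minus control, on the log2 scale. Groups of 3 arrays are too small for a test of single outlying arrays.

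Among secreted and signalling genes of inflammation the response was more negative for PPBP (-4.41), IL1B (-3.12), CCL20 (-2.43), CXCL2 (-2.13), IL1RN (-2.03), OSM (-1.97), NFKBIA (-1.62) and TNFAIP3 (-1.37). Among sensors and receptors it was more negative for CLEC7A (-2.48), ADORA3 (-2.39), TREM1 (-2.31), RASGRP3 (-1.92), CLEC5A (-1.71) and CD163 (-1.62), and more positive for CD36 (2.13). Among adhesion, matrix and TGF-beta genes it was more negative for COL22A1 (-2.88), CADM1 (-2.80), AFDN (-2.41), THBD (-2.32), LTBP1 (-1.88), LTBP2 (-1.43), SMAD6 (-1.09) and SELPLG (-0.72), and more positive for SMAD3 (0.67) and PLAU (0.52).

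Among transcription factors and early genes it was more positive for MYB (1.73), DUSP2 (1.63), NR4A3 (1.45), GFI1 (1.35), EGR3 (1.07), ID1 (0.82) and RASGRP2 (0.65), and more negative for DUSP10 (-0.96) and FOSB (-0.91). In the cell cycle and survival lists it was more positive for CCNB2 (1.40) and BCL2L11 (0.95) and more negative for BCL2 (-1.09), CDKN1A (-0.81) and CCND3 (-0.70). In metabolism it was more positive for AKR1C3 (3.19), KMO (1.78), ACAT2 (1.51), HMGCS1 (0.97), FABP3 (0.94) and IDI1 (0.92), and more negative for SRXN1 (-0.58).

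Among the other large differences it was more positive for JAKMIP2 (2.94), MB (2.88), RASD2 (2.22), TXLNB (1.71), NREP (1.70), RAB37 (1.21) and ATL1 (1.08), and more negative for PINLYP (-2.86) and IPCEF1 (-1.48). Among the genes that differed in opposite directions in the 2 treatments it was more positive for GRHL1 (1.78) and MATCAP2 (1.09), and more negative for HBEGF (-1.48), PPFIBP1 (-1.18), PIM1 (-1.07), PRKAR2B (-1.01), MPZL3 (-0.88) and ID2-AS1 (-0.60).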

How the results depend on the processing

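Over 21 alternatives, 92 of 140 genes given with values kept their side of the threshold in every one that could be run, 48 lost a call in at least 1, and none reversed. With only the 6 TPA arrays in the fit 1241 genes were called (626 higher, 615 lower) instead of 2214, and 32 of the 140 genes lost their call. A test against a difference of 0.2 called 855 (427 higher, 428 lower), 148 for the response and 216 in ethanol. With the replicate number as a block 2498 genes were called, 2168 of them shared with the fit without it, 1325 higher and 1173 lower, and apart from the list counts and HK2 given above it changed 1 call among the genes given with values, that of MPZL3 (-0.36, adjusted p = 0.0524 with the block). The block over the 6 TPA arrays alone called 1528 (821 higher, 707 lower), and 20 of the 140 genes lost their call in it: CSF2RB, FOSL1, MAFG, HLA-E, RSAD2, SP110, SQLE, PLAU, ITGAV, HK2, RBL1, NOP14, MCL1, CEBPE, TGFB3, MS4A3, VWF, ID2-AS1, MPZL3 and PRKAR2B. In that fit more members rose among cytokines (3), macrophage receptors (2) and cholesterol genes (7), and fewer among proteases (1). Fewer fell among AP-1 subunits (1), antigen presentation genes (1), cholesterol genes (0) and genes tied to EVI1 (2), and 2 fell in the oxidative burst list. Leaving out each array in turn gave 1532 to 2616 genes in TPA, lowest without EVI1 TPA replicate 2 and highest without EVI1 TPA replicate 3, 369 to 787 in ethanol and 188 to 681 for the difference in response, the last again highest without EVI1 TPA replicate 3. Centring the arrays on their medians changed the split to 974 higher and 1161 lower. Other normalization, the mean of all probe sets, the filter on dim genes and another variance prior kept the counts within 1.5 times. The array design and the absence of detection calls limit what can be said of dim genes: the lower group mean was below 5.07 for 196 called genes and both means for 103.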

Other observations

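In 9 genes the populations differed in opposite directions in the 2 treatments, each called in both. Besides CD36, which is given above, GRHL1, an epithelial transcription factor, was higher in EVI1 cells in TPA (0.91 ± 0.18 SE, adjusted p = 0.00407) and lower in ethanol (-0.88, adjusted p = 0.0131), and MATCAP2 was 0.63 ± 0.11 in TPA (adjusted p = 0.0014) and -0.46 in ethanol (adjusted p = 0.0295), at a dim level. The other members were lower in TPA and higher in ethanol. HBEGF, a ligand of the EGF receptor, was at -1.01 ± 0.10 in TPA and 0.46 in ethanol (adjusted p = 2.97e-05 and 0.0221). PIM1, a serine/threonine kinase induced by cytokines, was at -0.44 ± 0.09 and 0.62 (adjusted p = 0.0048 and 0.00118), and PPFIBP1, a liprin, at -0.71 ± 0.09 and 0.48 (adjusted p = 0.000217 and 0.0102). PRKAR2B, a regulatory subunit of protein kinase A, was at -0.48 ± 0.12 and 0.53, MPZL3 at -0.36 ± 0.11 and 0.52, and ID2-AS1 at -0.28 ± 0.07 and 0.32. ID2-AS1 is read from an antisense transcript. These genes were chosen after their values were seen, as the complete set called in opposite directions.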
